A study of Mus musculus with 4 samples.

Results

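The genes described here are the heavy chains of MHC class I molecules, their shared light chain and the regulator that switches them on. The 10 members were named one by one, and their symbols were matched to the gene identifiers of the deposited table through GENCODE M21. They are H2-K1, H2-D1, H2-Q4, H2-Q6, H2-Q7, H2-T22, H2-T23, H2-M3, B2m and Nlrc5, out of 54532 genes in the table. RNA sequencing had been done on total RNA from bone marrow cells of CB6F1 mice that the labels call MSCs, isolated by enzymatic digestion of whole marrow and then grown in high-glucose medium with serum. In the R group (2 libraries) the cultured cells had been given a compound that the labels name only R, at 0.5 µM (written "um" there), and in the vehicle group (2 libraries) they had been given the solvent DMSO. All 4 sample titles carry the term aGVHD, so both groups share whatever it stands for, and no group without it was compared here. No label gives the age of the mice or the length of treatment. Nor does one say that replicates are different animals or cultures, and the p-values then reflect the spread between these libraries alone, which may be technical.

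MHC class I molecules sit on nearly all nucleated cells and hold up peptides from inside the cell. Each is a polymorphic heavy chain paired with beta-2 microglobulin, the product of B2m, without which most heavy chains do not reach the surface. The classical chains H2-K1 and H2-D1 present peptides to CD8 T cells, while the non-classical chains of the Q, T and M regions are less polymorphic and have narrower tasks. Interferons raise class I transcription, in part through NLRC5, a protein of the NLR family that enters the nucleus and acts with factors bound to the promoters of class I genes, as CIITA does at class II genes. On stromal cells of the marrow, class I molecules take part in recognition by T cells and NK cells. CB6F1 mice are hybrids of BALB/c and C57BL/6 and carry a pair of different MHC haplotypes, whereas the mouse reference genome is C57BL/6. How reads from the other haplotype were assigned was not tested.

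The promoters are shown because most of these genes share a compact control region. RefSeq promoters (GRCm38.p6), from 250 bases before to 50 bases after the gene start, were matched for 9 of the 10 members, all but Nlrc5. Stretches upstream of 5 of these gene starts are printed 5′ to 3′ on the strand of the gene. Capitals mark matches to 5 short motifs, searched on both strands: GGGATTCCC (an NF-kB site), TTTCACTT, and TTTC followed after any 2 bases by TTTC (forms of the interferon response element, the second called the repeated form here), TGACG (a core of the X2 box) and CCAAT (the Y box, read ATTGG on the other strand). The capitals GAAACTGAAA in B2m are the repeated form read on the other strand. The 2 interferon element motifs overlap where TTTCACTT is followed by TC, as in H2-T22.
H2-K1, chr17:34000348-34000467, minus strand: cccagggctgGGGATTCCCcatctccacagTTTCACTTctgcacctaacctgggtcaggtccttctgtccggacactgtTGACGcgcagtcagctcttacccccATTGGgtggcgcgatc
H2-Q4, chr17:35379434-35379568, plus strand: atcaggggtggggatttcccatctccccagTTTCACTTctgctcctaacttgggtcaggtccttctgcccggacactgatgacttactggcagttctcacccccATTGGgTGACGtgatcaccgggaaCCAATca
H2-Q6, chr17:35424668-35424802, plus strand: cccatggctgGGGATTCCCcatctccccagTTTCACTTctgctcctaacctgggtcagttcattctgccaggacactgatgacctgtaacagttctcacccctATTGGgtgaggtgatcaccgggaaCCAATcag
H2-M3, chr17:37270103-37270219, plus strand: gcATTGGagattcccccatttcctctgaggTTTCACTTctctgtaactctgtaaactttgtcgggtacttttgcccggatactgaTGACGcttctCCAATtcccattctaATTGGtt
B2m, chr2:122147518-122147652, plus strand: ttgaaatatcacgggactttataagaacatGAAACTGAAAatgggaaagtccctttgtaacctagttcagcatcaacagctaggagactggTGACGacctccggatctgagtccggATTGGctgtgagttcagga

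TTTCACTT was found in 7 of the 9 promoters, and in 1.60% of 32851 RefSeq promoters of the same length. H2-T23 and B2m lack it and hold the repeated form, which is in 3.44% of all promoters. GGGATTCCC was in 4 of the 9, those of H2-K1, H2-D1, H2-Q6 and H2-Q7, against 0.353% of all. Only this exact string was counted, and the H2-Q4 stretch reads gggatttccc, with an extra t, before its TTTCACTT. TGACG was in 7 of 9 against 20.8%, and CCAAT in 9 of 9 against 37.4%. These counts take no account of position. In H2-K1 TGACG lies upstream of ATTGG. In H2-Q4 it lies downstream of ATTGG, and in H2-T22 downstream of every CCAAT match. The TGACG matches of H2-Q4 and H2-T22 are thus not placed as in H2-K1, and were counted as letters only. H2-M3 and H2-T22, the members with the smallest log2 differences below, hold TTTCACTT as H2-Q4 and H2-Q6 do. H2-T23 and B2m, which lack it, had log2 fold changes of -1.15 and -1.33. The motifs were not tested against the changes. A match describes letters in this window and does not show a bound site.

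The table gives FPKM, reads scaled to gene length and library size, so levels can be compared between genes. FPKM times gene length gave whole reads, within 0.02 read, for 96.3 to 96.4% of values, and the genes concerned held 16570419 to 18140519 reads per library. The library size that these values imply was 19298992 and 18090622 in R and 17638814 and 17942632 in vehicle. Recovered reads, rounded and summed over all genes, were 19940952 and 18091297 in R and 18720432 and 18890688 in vehicle. Why the 2 differ by unlike amounts was not tested. For 9 members the reads were whole in every library, from 122 reads (H2-Q6 in R replicate 2) to 48535 reads (B2m in vehicle replicate 1), and for H2-K1 they were not, so its read number is not given. The cells carried macrophage transcripts. The summed FPKM of 20 macrophage and monocyte markers was 17186 and 13304 in the R libraries and 25360 and 22709 in the vehicle libraries, that of 13 mesenchymal stromal markers 1898 and 1941 in R and 1468 and 1455 in vehicle. The stromal markers Lepr and Thy1 had means below 1 FPKM. Of 7 T and NK cell markers, 6 were at 0 in all 4 libraries (Cd3e, Cd3d, Cd3g, Cd8a, Ncr1 and Klrb1c), Cd4 had 6.35 to 8.14 FPKM, and 4 of 5 neutrophil markers were at 0. The summed levels were 0.744 to 0.854 FPKM for 7 dendritic cell markers, 0.809 to 2.37 FPKM for 4 B cell markers, 3.93 to 5.84 FPKM for 4 endothelial markers, and at most 0.386 FPKM for 4 erythroid markers.

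All 10 members were lower in both R libraries than in both vehicle libraries. A mean of 1 FPKM or more was asked of a gene to be tested, and of the 12176 such genes 25.2% had this pattern and 22.7% its opposite. H2-Q4, H2-Q6, H2-T23 and Nlrc5 fell at an adjusted p under 0.05, which 1.37% of tested genes did, and no member was called higher, as 0.345% of tested genes were. The test was limma on log2(FPKM + 1) with Benjamini-Hochberg adjustment over all tested genes. Its SE for a gene combines that gene's own spread (2 degrees of freedom) with that of genes of similar level (3.83 degrees of freedom). All 10 had an unadjusted p under 0.05, as had 1947 of all tested genes. The median log2 fold change of the members was -0.90, against 8.3e-05 over all tested genes. Without R replicate 1 all 10 members were called lower, in a fit that called 665 of all tested genes lower against 167 with all libraries. Without any filter on low values none of the 10 was, and limma called 0 of 24958 genes and 2767 had an unadjusted p under 0.05. In bulk RNA, fewer cells of a type and less RNA per cell cannot be told apart. The summed macrophage markers stood at 63.4% of the vehicle mean in R and the summed stromal markers at 131%, and their part in these differences was not tested. Single genes weigh heavily in both sums. Lyz2 averaged 7976 of 15245 FPKM of the macrophage sum in R and 13554 of 24035 FPKM in vehicle. Col1a1 averaged 823 of 1919 FPKM of the stromal sum in R and 529 of 1462 FPKM in vehicle.

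**Figure D1:**
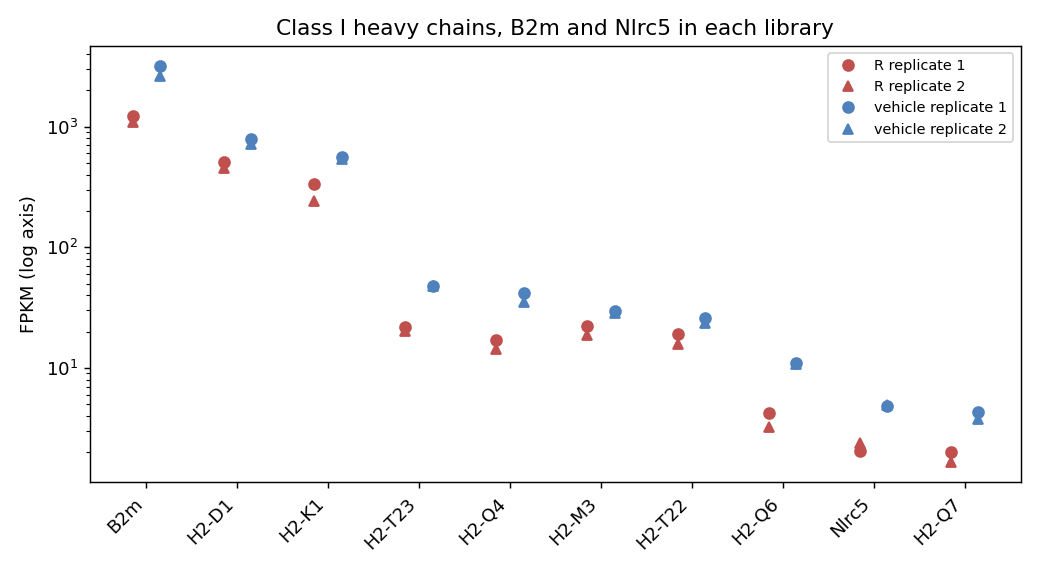
FPKM of each member (log axis) in the 4 libraries, ordered by the vehicle mean, with R in red, vehicle in blue, circles for replicate 1 and triangles for replicate 2. For every gene both R points lie below both vehicle points, and B2m, H2-D1 and H2-K1 stand above all the others in each library.

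The classical chains were the most abundant heavy chains, and neither passed the test. Their SEs, 0.204 for H2-K1 and 0.179 for H2-D1, were larger than those of the non-classical chains, 0.118 to 0.155. Passing or missing the threshold thus does not rank the sizes of the changes. H2-D1 (ENSMUSG00000073411; GRCm38 chr17:35262730-35267499) was at 510.1 and 452 FPKM in R replicates 1 and 2 and at 794 and 722 FPKM in vehicle replicates 1 and 2. The lowest vehicle library was thus 1.42-fold above the highest R library, while libraries of 1 group differed by at most 1.13-fold. Its log2 fold change was -0.66 (SE 0.179; limma, Benjamini-Hochberg adjusted p = 0.157). H2-K1 (ENSMUSG00000061232; chr17:33996017-34000347) was at 333 and 244 FPKM in R and 558 and 537 FPKM in vehicle. The vehicle libraries lay close together, and R replicate 2 was well below R replicate 1. Its log2 fold change was -0.94 (SE 0.204; limma, Benjamini-Hochberg adjusted p = 0.0995). The alternative fits counted for each gene, here and below, are those without a term for the replicate number. H2-K1 was called in 5 of these 11 fits and H2-D1 in 2, with limma adjusted p from 0.0130 to 0.626 and from 0.0341 to 0.9997 (Benjamini-Hochberg).

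Of the 3 Q region chains 2 fell, at levels far below those of the classical chains. H2-Q4 (ENSMUSG00000035929; chr17:35379617-35385290), an abundant member of the Q region, was at 17.2 and 14.3 FPKM in R and 41.7 and 34.9 FPKM in vehicle. The R libraries held 860 and 670 reads and the vehicle libraries 1911 and 1624. It fell by 1.23 in log2 units (SE 0.155; limma, Benjamini-Hochberg adjusted p = 0.0231). H2-Q6 (ENSMUSG00000073409; chr17:35424850-35430055) encodes a form of the Qa-2 antigen, as does H2-Q7. It was at 4.25 and 3.23 FPKM in R and 11.04 and 10.67 FPKM in vehicle, with a vehicle mean 2.90-fold that of R. This was the largest fold between group means among the members. H2-Q6 fell by 1.33 (SE 0.146; limma, Benjamini-Hochberg adjusted p = 0.0153). H2-Q7 (ENSMUSG00000060550; chr17:35439155-35443773), at 1.99 and 1.66 FPKM in R and 4.28 and 3.75 FPKM in vehicle, did not pass the test (log2 fold change -0.83; limma, Benjamini-Hochberg adjusted p = 0.0569). Its vehicle mean was 2.20-fold the R mean, and adding 1 FPKM before the logarithm understates the change at such low values. With 0.1 FPKM added the log2 fold change was -1.10, and H2-Q7 did not pass there either (limma, Benjamini-Hochberg adjusted p = 0.0593).

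In the T region, neighbouring genes differed. H2-T23 (ENSMUSG00000067212; chr17:36029773-36032855) encodes Qa-1, the ligand of the inhibitory NK cell receptor CD94/NKG2A. It was at 21.6 and 20.4 FPKM in R and at 47.8 FPKM in both vehicle libraries, the tightest replicates of any member. It fell by 1.15 in log2 units (SE 0.118; limma, Benjamini-Hochberg adjusted p = 0.0132). H2-T22 (ENSMUSG00000056116; chr17:36037128-36042747), a chain that binds no peptide and is recognised by gamma delta T cells, was at 19.1 and 15.7 FPKM in R and 25.8 and 23.7 FPKM in vehicle. The gap between its groups, 1.24-fold, was close to the 1.22-fold spread between its R libraries. It did not pass the test (log2 fold change -0.49, SE 0.142; limma, Benjamini-Hochberg adjusted p = 0.181). The ratio of H2-T23 to H2-T22 was 1.13 and 1.30 in R and 1.85 and 2.02 in vehicle, so it did not overlap between groups, and it was not tested. H2-M3 (ENSMUSG00000016206; chr17:37270220-37274484), which presents formylated peptides of bacteria, was at 22.2 and 18.9 FPKM in R and 29.4 and 28.8 FPKM in vehicle. It did not pass the test either (log2 fold change -0.49, SE 0.132; limma, Benjamini-Hochberg adjusted p = 0.157). H2-T22 and H2-M3 were each called in 1 of the 11 alternatives without a replicate term, the fit without R replicate 1.

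**Figure D2:**
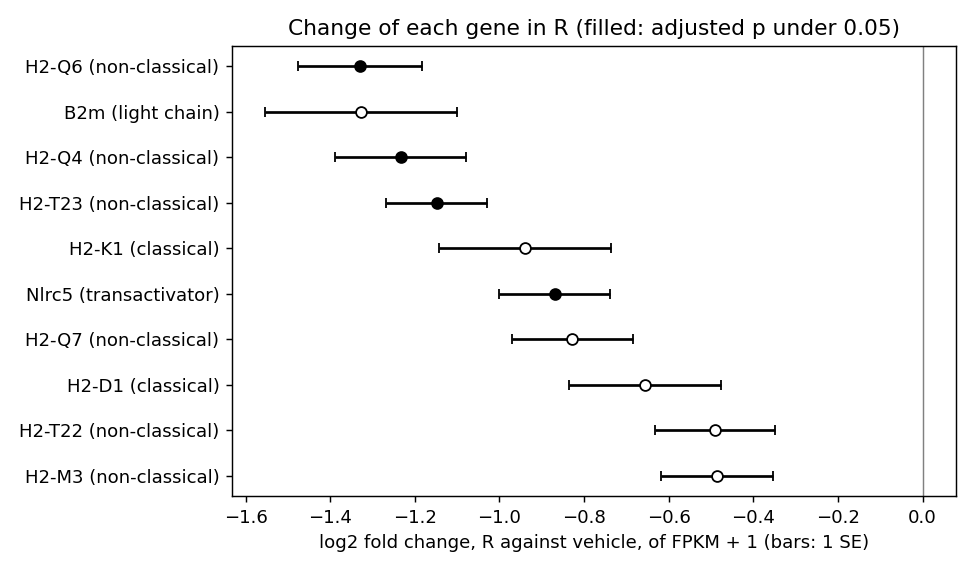
Log2 fold change of each member, R against vehicle, on the log2(FPKM + 1) scale with bars of 1 SE from limma, ordered by size. Filled points passed an adjusted p of 0.05. Values run from -1.33 for H2-Q6 to -0.49 for H2-M3, with classical and non-classical chains interleaved.

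B2m (ENSMUSG00000060802; chr2:122147686-122153083), the light chain, was the most abundant member. It was at 1226 and 1091 FPKM in R and 3199.5 and 2634 FPKM in vehicle. The lowest vehicle library was 2.15-fold above the highest R library, and replicates of a group differed by at most 1.21-fold. Its log2 fold change of -1.33 (SE 0.227) narrowly missed the threshold (limma, Benjamini-Hochberg adjusted p = 0.056). H2-Q6, also at -1.33, passed it with an SE of 0.146. B2m was called in 7 of the 11 alternatives without a replicate term, with limma adjusted p from 0.00641 to 0.705 (Benjamini-Hochberg). The highest of these came without vehicle replicate 1, and without vehicle replicate 2 it was not called either (limma, adjusted p = 0.322).

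Nlrc5 (ENSMUSG00000074151; chr8:94434356-94527272), the class I transactivator, was expressed at a low level. It was at 2.04 and 2.395 FPKM in R and 4.87 and 4.88 FPKM in vehicle, with 335 and 368 reads in R and 729 and 743 reads in vehicle. The R mean was 45.6% of the vehicle mean, and vehicle replicates were nearly equal. Nlrc5 fell by 0.87 in log2 units (SE 0.131; limma, Benjamini-Hochberg adjusted p = 0.0443). This call was lost without vehicle replicate 1 (limma, adjusted p = 0.0677), without vehicle replicate 2 (adjusted p = 0.0527), after rescaling to TPM (adjusted p = 0.108) and without a filter (adjusted p = 0.189). Ciita, its class II counterpart, was at 0.0163 to 0.0760 FPKM and too low to be tested.

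Setting classical against non-classical chains gave a small difference that depended on which chains were counted and on the scale. The mean log2(FPKM + 1) of the 2 classical chains minus that of the 6 non-classical chains was 5.10 and 5.01 in R and 4.93 and 4.94 in vehicle. The group means of this difference were 5.06 in R and 4.94 in vehicle, so the classical chains lay 0.12 further above the non-classical ones in R. On this scale the R libraries differed from each other by nearly as much. With 0.1 FPKM added instead of 1, the classical minus non-classical value was 5.27 and 5.21 in R and 5.02 and 5.03 in vehicle. After quantile normalization it was 5.03 and 5.24 in R and 4.85 and 4.90 in vehicle. As 2 libraries against 2 cannot go below an exact permutation p of 0.333, no test is given. On the log2(FPKM + 1) scale with H2-Q6 and H2-Q7 left out, the difference between R and vehicle was 0.04. With only H2-Q4, H2-Q6 and H2-Q7 as non-classical chains it was 0.33, and with only H2-T22 and H2-M3 it was -0.31; these 2 settings were chosen after the data were seen. Non-classical chains thus lay on both sides of the classical chains and between them. H2-Q4, H2-Q6 and H2-T23 had log2 fold changes of -1.15 to -1.33, and H2-K1 and H2-D1 of -0.94 and -0.66. H2-Q7, at -0.83, lay between these 2, and H2-T22 and H2-M3 were at -0.49 each.

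The make-up of the heavy chain pool differed modestly between the groups. Summed heavy chain FPKM was 930 and 770.2 in R and 1512 and 1409 in vehicle. The non-classical chains together made up 9.29 and 9.63% of the sum in R and 10.6% in both vehicle libraries. H2-T23 took 2.33 and 2.65% in R and 3.16 and 3.39% in vehicle, and H2-Q4 took 1.85% in both R libraries and 2.76 and 2.47% in vehicle. H2-M3 went the other way, at 2.39 and 2.45% in R and 1.94 and 2.04% in vehicle. H2-T22 did too, with 2.06 and 2.04% in R against 1.71 and 1.68% in vehicle. H2-D1 was 54.9 and 58.7% of the pool in R and 52.5 and 51.3% in vehicle. Shares of 1 sum are not independent of each other, and none was tested. B2m was lower by more than its partners were in sum: B2m per heavy chain FPKM was 1.32 and 1.42 in R and 2.12 and 1.87 in vehicle, with no overlap between the groups. The sums and shares above did not overlap either, so lack of overlap does not set this ratio apart, and it was not tested.

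**Figure D3:**
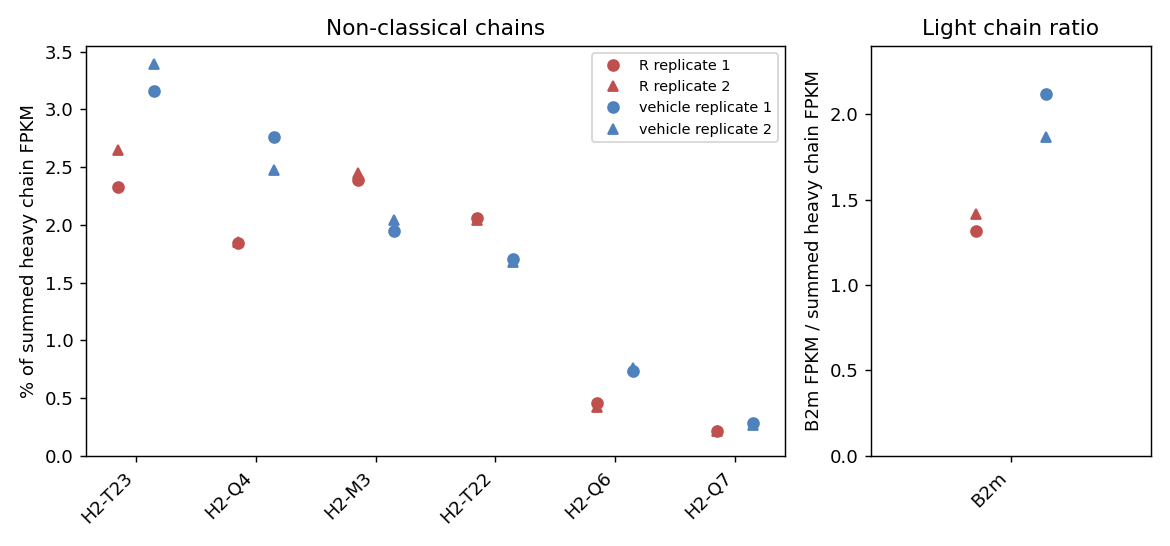
Left, each non-classical chain as a percentage of the summed FPKM of the 8 heavy chains. Right, B2m FPKM divided by that sum. R is red, vehicle blue, circles replicate 1 and triangles replicate 2. The R points lie below the vehicle points for H2-T23, H2-Q4, H2-Q6 and H2-Q7, above them for H2-M3 and H2-T22, and the B2m ratio is 1.32 to 1.42 in R and 1.87 to 2.12 in vehicle.

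The order of levels differed between the groups in its middle. In vehicle it ran B2m, H2-D1, H2-K1, H2-T23, H2-Q4, H2-M3, H2-T22, H2-Q6, Nlrc5 and H2-Q7, and no neighbours in this order overlapped between their libraries. In R the top 3, H2-Q6, Nlrc5 and H2-Q7 kept their places. H2-T23 and H2-M3 overlapped there, as did H2-M3 and H2-T22, and H2-T22 and H2-Q4, so these 4 chains formed a range from 14.3 to 22.2 FPKM. The plot of FPKM by library shows H2-T23 and H2-Q4 dropping into the range of H2-M3 and H2-T22.

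How far a chain's value is its own depends on sequence shared with other genes. Of the distinct 50-base stretches in the annotated transcripts of each gene, 100% of those of B2m, 99.7% of Nlrc5 and 99.4% of H2-M3 occurred in no other gene. The share was 90.4% for H2-K1, 87.2% for H2-D1 and 85.5% for H2-T23. It was 73.5% for H2-Q7, 65.03% for H2-Q6 and 63.6% for H2-Q4. H2-T22 had the lowest, 46.5%, sharing 31.2% with H2-T10, annotated as a polymorphic pseudogene, and 26.5% with A930015D03Rik, an antisense transcript. H2-T10 was at 1.33 to 2.54 FPKM and A930015D03Rik at 0 to 0.199 FPKM, against 15.7 to 25.8 FPKM for H2-T22. H2-Q4 shared 15.3% with the antisense gene Gm11131, which was at 0.301 to 0.571 FPKM. With 100-base stretches the shares found in no other gene were 68.5% for H2-T22 and 85.9 to 88.0% for the Q chains. Read length, the handling of reads that fit several genes and the use of strand were not given in the sources used here, so the values of the Q chains and H2-T22 are uncertain to that extent.

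Genes whose profile over the 4 libraries lay closest to B2m and to Nlrc5 were taken from 7185 protein-coding genes averaging 5 FPKM or more, by the distance between centred log2(FPKM + 1) values. For B2m these were H2-Q4 (distance 0.112), Ctss, which encodes the protease cathepsin S (0.132), and Stat2, a transcription factor of type I interferon signalling (0.138). For Nlrc5 they were Msr1, a macrophage scavenger receptor (0.0383), Cd53, a leukocyte tetraspanin (0.0793), and Dram2 (0.0817). With 4 libraries this likeness is a description only, and all of these profiles are lower in R.

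Other class I and class I-like heavy chains were mostly silent. Of 22 listed genes 19 were matched to the table, 7 of these were at 0 FPKM in every library, and 7 passed the filter. Among the 7, 2 fell and none rose, as 1.37% and 0.345% of all tested genes did, with a median log2 fold change of -0.43. The 2 were H2-T24, at 0.926 and 1.52 FPKM in R and 3.98 and 5.80 FPKM in vehicle (limma, Benjamini-Hochberg adjusted p = 0.0463), and H2-Q5, annotated as a polymorphic pseudogene, at 1.82 and 2.02 FPKM in R and 4.42 and 4.94 FPKM in vehicle (adjusted p = 0.0335). H2-Q5 shares 6.0% of the 50-base stretches of H2-Q6 and 8.7% of those of H2-Q7. Fcgrt, the heavy chain of the neonatal Fc receptor, which also pairs with beta-2 microglobulin, was the most abundant averaging 157 ± 42.8 FPKM with R and 155 ± 0.166 FPKM with vehicle (SD, n = 2 each). Its log2 fold change was -0.01 (limma, Benjamini-Hochberg adjusted p = 0.989). Cd1d1, which presents lipids to NKT cells, averaged 8.41 ± 0.455 FPKM with R and 6.60 ± 0.106 FPKM with vehicle (SD, n = 2 each), not called.

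The genes that supply and load class I peptides were not called singly. Of 15 listed and tested, none passed in either direction, 13 had log2 fold changes below 0, 5 had an unadjusted p under 0.05, and the median was -0.27. Of all 12176 tested genes 1947 had such an unadjusted p. Tap1, a subunit of the peptide transporter, averaged 12.1 ± 1.37 FPKM with R and 19.4 ± 1.21 FPKM with vehicle (SD, n = 2 each), with a limma adjusted p = 0.0926 (Benjamini-Hochberg). Psmb9, an immunoproteasome subunit, was at 5.93 ± 1.03 and 10.4 ± 1.09 FPKM (SD, n = 2 each; adjusted p = 0.097, same test). Tap2, the other transporter subunit, averaged 13.4 ± 1.02 FPKM with R and 13.9 ± 0.651 FPKM with vehicle. Psmb8, another immunoproteasome subunit, averaged 18.0 ± 5.69 and 21.4 ± 0.564 FPKM (SD, n = 2 each). Both overlapped between the groups. The general chaperones of the list lay near 0, with Calr at a log2 fold change of -0.07 and Hspa5 at 0.07.

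Proteins that bind class I promoters with NLRC5 showed no calls. Of 8 genes of the RFX, NF-Y and CREB/ATF families all were tested, 0 passed limma's threshold, 0 had an unadjusted p under 0.05 and the median log2 fold change was -0.02. Rfx5, an RFX subunit, averaged 3.64 ± 0.600 FPKM with R and 2.87 ± 0.370 FPKM with vehicle, and Rfxap at 7.24 ± 1.002 and 8.36 ± 1.70 FPKM (SD, n = 2 each). Of signalling genes listed as upstream of Nlrc5 and class I, 3 of 14 tested fell and 0 rose, with a median of -0.28. The 2 with the smallest p were Irf9 and Stat2, which carry interferon signals to the nucleus, with log2 fold changes of -1.55 and -1.40 (adjusted p = 0.0075 for Irf9 and adjusted p = 0.00763 for Stat2, by limma with Benjamini-Hochberg adjustment). Irf1, a direct activator of class I promoters, averaged 9.53 ± 0.169 FPKM with R and 12.1 ± 0.806 FPKM with vehicle (SD, n = 2 each) and was not called.

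Among 7 tested NLR genes other than Nlrc5, 0 passed limma's threshold, 4 had an unadjusted p under 0.05, and the median log2 fold change was -0.36. The 2 with the smallest p were Naip5, a sensor of bacterial flagellin, averaging 3.11 ± 0.0687 FPKM with R and 5.20 ± 0.143 FPKM with vehicle, and Nlrp1b, an inflammasome sensor, at 1.63 ± 0.0936 and 2.78 ± 0.160 FPKM (SD, n = 2 each). Of 6 tested class II genes 0 passed limma's threshold, with 3 at an unadjusted p under 0.05 and a median of -0.50. Cd74, the invariant chain, averaged 10.8 ± 3.99 FPKM with R and 25.6 ± 1.32 FPKM with vehicle, and H2-Aa at 2.14 ± 0.447 and 4.25 ± 0.242 FPKM (SD, n = 2 each). Of the 20 macrophage and monocyte markers, all tested, 3 fell (Fcgr1, Ctss and Itgam) and 19 had a negative log2 fold change; the median was -0.59. Of 11 tested stromal markers 0 were called by limma, 4 had an unadjusted p under 0.05, 2 had a negative log2 fold change, and the median was 0.37. These lists were read from the same fit, and the differences between lists were not tested. Over all 12176 tested genes 1.37% were called lower, 0.345% were called higher and 1947 had an unadjusted p under 0.05.

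**Figure D4:**
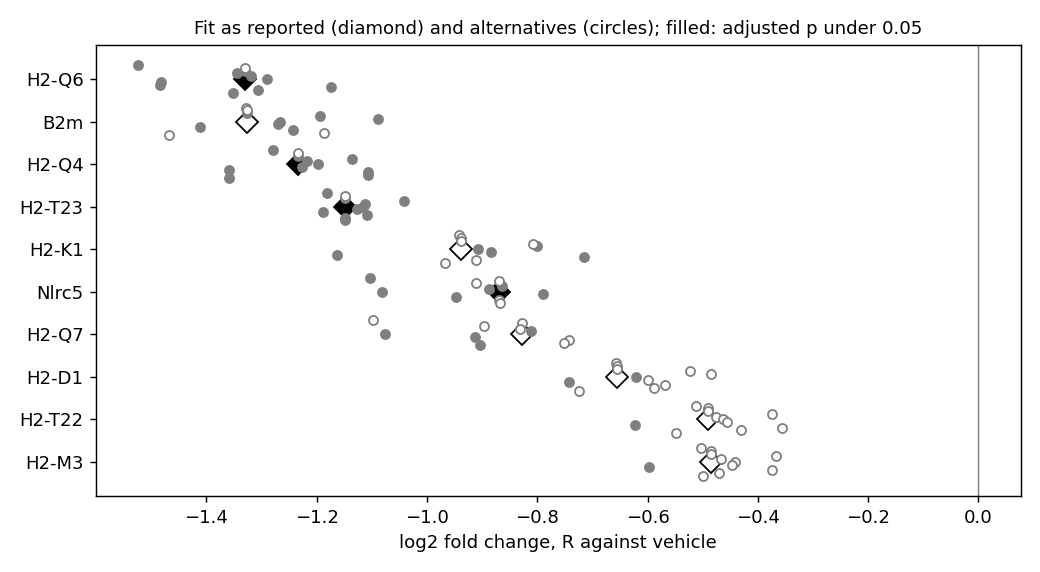
Log2 fold change of each member in the fit as reported (diamond) and in up to 11 alternative fits (circles; the fit with a replicate block is not plotted), filled where the adjusted p was under 0.05. All values lie below 0, and H2-Q4, H2-Q6 and H2-T23 are filled in 10 of these 11 alternatives each.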

How the data were processed

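Expression was measured as deposited FPKM values of 54532 genes in 4 libraries, per the file headers. GRCm38 and mm10 are the builds, and edgeR 3.18.1 a tool in an unstated role, per the submitters' processing notes. Aligner, counter and annotation: not given in the sources used here. Identifiers of 54495 genes matched GENCODE M21 (GRCm38), 37 did not, and 10 empty columns were unused.

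Values were analysed as log2(FPKM + 1), which understates changes of low genes, for genes averaging 1 FPKM or more. limma 3.58.1 under R 4.3.3 (eBayes with trend, two-sided, 2 residual degrees of freedom, prior 3.83, median SE 0.148) compared R with vehicle without covariates. Benjamini-Hochberg adjustment ran over all tested genes, at 0.05. The fit was also run once on simulated counts of 12027 genes. It called 218 of them, and 22 of these were false calls, a share above the 0.05 threshold. Coordinates are 1-based.

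The members and lists were chosen with earlier results of these data known. The text names all members and the 2 genes of smallest p per pathway list, and the 3 most like B2m and Nlrc5. Other listed genes named, among them Fcgrt, Cd1d1, Ciita, Calr, Hspa5, Irf1 and the called macrophage markers, were chosen after their values were seen. The values of 1 listed gene are not reported here. Alternatives were a pseudocount of 0.1, no filter, a mean of at least 5 FPKM, TPM, quantile normalization, voom on recovered reads, a correction for gene length (loess), a replicate block and each library left out.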

Additional observations from a re-analysis of the deposited data

How the results depend on the processing

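Across the alternatives, the replicate block included, every log2 fold change of the 10 members stayed below 0. Of these values 85 were called or not called as in the reported fit, whatever their size, 26 were newly called and 7 lost their call. Under TPM the median over all tested genes shifted to 0.13 in log2 units, and relative to it the members ran from -1.47 to -0.49. It left 68.1% of calls lower, against 79.9% on the deposited scale. That share was 59.9% with the length correction, 69.2% with voom and 53.1% with the block. Members called lower, 4 as reported, were 0 without a filter, 8 with the length correction and 7 with voom, and 3 to 10 with 1 library left out. Genes higher and lower, 42 and 167 as reported, were 0 and 0 without a filter, 222 and 331 with the length correction, and 94 higher with voom. With 1 library left out they ran from 96 to 438 and from 193 to 665. Leaving out R replicate 1 gave 312 and 665, R replicate 2 gave 438 and 410, vehicle replicate 1 gave 96 and 193, and vehicle replicate 2 gave 150 and 259; the lone library of a group is assumed there to vary like the other group. The cause was not tested. The difference of classical minus non-classical chains between R and vehicle, 0.12 as reported, was 0.22 with a pseudocount of 0.1, 0.19 on the TPM scale, 0.26 after quantile normalization and 0.23 with voom. It was 0.042 without H2-Q6 and H2-Q7, 0.33 for the Q chains alone and -0.31 for H2-T22 and H2-M3 alone, and 0.07 to 0.17 with 1 library left out.

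The replicate numbers are shared by the groups, but no label says that they mark a common animal or day. Deviations of same-numbered libraries correlated at 0.353 across genes. With the number as a replicate block, 891 genes were higher and 1009 lower, and 10 members were lower. The counts of alternatives per gene in the text leave this fit out.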
